A study of Mus musculus with 6 samples.

Results

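The Wnt ligands, their Frizzled receptors and Lrp5 and Lrp6 coreceptors, the secreted Sfrp and Dkk antagonists, and the transcriptional readouts Axin2 and Lef1 were examined in ipsilateral and contralateral retinal ganglion cells (RGCs) of the embryonic mouse. Members were taken by name: a probe set had to be annotated to a single symbol that began with Wnt, Fzd, Sfrp or Dkk followed by a digit, or to Axin2, Lef1, Tcf7, Lrp5 or Lrp6, and the probe set with the highest mean over the 6 arrays stood for its gene. This gave 42 of 18193 genes, measured by 82 probe sets, with 19 ligands, 10 Frizzled receptors, 2 coreceptors, 4 Sfrp genes, 4 Dkk genes, 2 readouts and Fzd10os, a transcript from the strand opposite Fzd10 that matched by its spelling. No probe set was annotated to Tcf7 alone, and that gene was not analysed here. The rule itself used no measured difference between the sides, but it was chosen with earlier results of these data known.

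Ipsilateral RGCs project to the same side of the brain and contralateral RGCs cross at the optic chiasm. Both groups came from C57BL/6J retinas at E16.5 (recorded as day 16 in the sample records), and every sample was exposed to rhodamine-conjugated dextran at the cut optic tract for 2 h before the retinas of 2 litters were pooled by side, dissociated with papain and sorted for dye-filled, living cells. The 3 rounds of this procedure each gave 1 ipsilateral and 1 contralateral sample, so there were 3 arrays per side. Each sample is a pool of embryos and the dye is the only mark of the cells sorted. Values are log2 intensities of Affymetrix probe sets, and a difference is always ipsilateral minus contralateral on that scale.

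Wnt proteins are secreted, lipid-modified ligands that bind Frizzled receptors. Together with Lrp5 or Lrp6 they stabilise beta-catenin, which enters the nucleus and acts with Tcf and Lef factors, while other Wnt and Frizzled pairs act on planar cell polarity and growth cone steering without beta-catenin. In the eye the pathway is known for its part in patterning the optic cup, in the ciliary margin and progenitors, and in the guidance of RGC axons.

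The labels and the cell type were checked first. Zic2, the transcription factor of ipsilateral RGCs, rose in ipsilateral RGCs by 2.50 (SE 0.42), with an adjusted p = 0.0246 in limma, and 0.0739 when the samples of a round were paired in the fit (the replicate block). These rounds had been selected by the study for Zic2 enrichment, so this value is a check only. The mean level of 16 RGC markers was 10.4 to 11 in the ipsilateral arrays and 10.9 to 11.4 in the contralateral arrays, and all 16 were lower on the ipsilateral side in every round (median difference -0.45), with 0 called by limma and 0 at an unadjusted p under 0.05. When the samples of a round were paired, 0 were called and 10 of the 16 had an unadjusted p under 0.05, beside 14.5% of all genes tested. Of all genes, 18.7% were lower on the ipsilateral side in every round. The 16 include Pou4f1 (Brn3a), a known marker of contralateral RGCs that the study listed as higher there from these arrays. The direction of Pou4f1 was thus known beforehand. Markers of retinal progenitors and of microglia and macrophages were higher on the ipsilateral side, and their values stand with the results below. In such bulk samples, fewer cells of a type and less RNA per cell cannot be told apart.

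Among the Wnt pathway genes, the secreted antagonist Sfrp2 rose in ipsilateral RGCs, the receptor Fzd5 differed by the same mean amount without passing the test, and the mean differences of the Wnt ligands lay between -0.12 and 0.37. A gene was called when its difference was 2-fold or more with a limma adjusted p under 0.05. Of the 42 genes, 35 had a mean at or above the filter level of 4.74 and were tested, and 1 was called higher in ipsilateral RGCs (2.86% of those tested, beside 0.358% of the 15346 genes tested overall). No member was called lower, also at an unadjusted p under 0.05, and 0% of all genes tested were called lower. With the replicate block 0 members were called, beside 0.319% of all genes called higher. At an unadjusted p under 0.05 there were 7 of the 35 members, beside 3.04% of all genes tested, and 9 with the block, beside 14.5% of all genes tested. The median difference of the members was 0.04, beside -0.01 over all genes.

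More members were higher than lower in ipsilateral RGCs in every round. Of the 42, 11 were higher in ipsilateral RGCs in all 3 rounds (26.2%, beside 17.1% of all genes) and 2 were lower in all 3 rounds (4.76%, beside 18.7% of all genes). The ipsilateral and contralateral values did not overlap for 6 members, each higher on the ipsilateral side (14.3%, beside 3.28% of all genes), and no member had its ipsilateral values below all contralateral values, as 1.68% of all genes did. A mean difference of 2-fold or more higher was seen for 6 members (14.3%, beside 2.39% of all genes) and of 2-fold or more lower for 0. The study listed Sfrp2, Fzd5 and Fzd2 among its changed genes from these arrays, so these counts are no independent evidence of their direction. At the same thresholds but with other software, the study thus called Fzd5 and Fzd2, which limma here did not. The study also listed genes higher in contralateral RGCs, whereas limma here called no tested gene lower in ipsilateral RGCs. An exact permutation test of 1 gene with 3 arrays against 3 cannot go below p = 0.10.

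**Figure D1:**
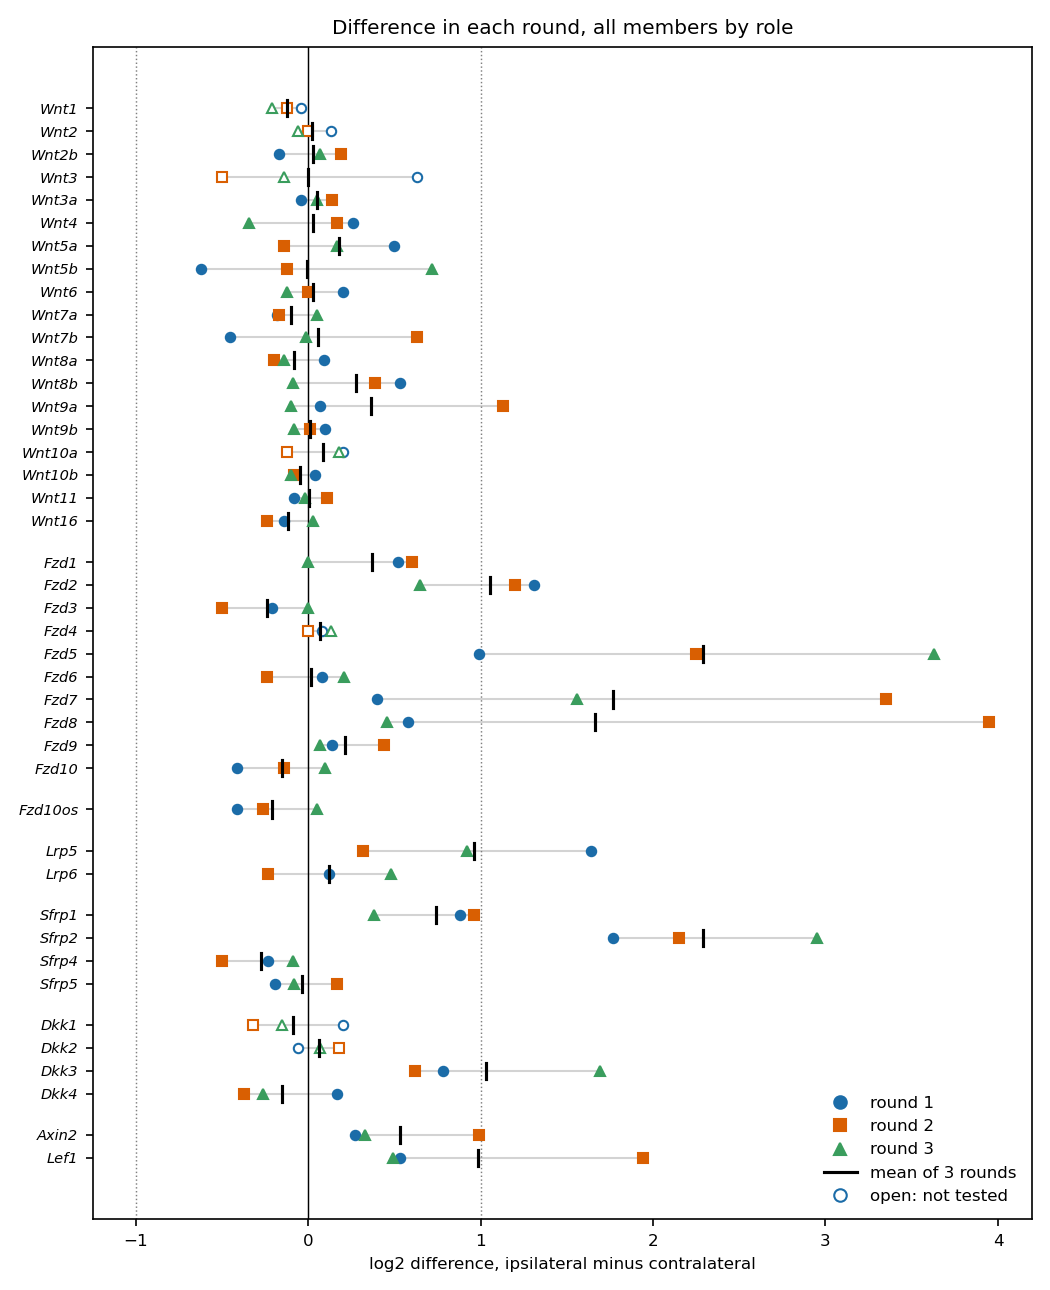
The horizontal axis is the log2 difference (ipsilateral minus contralateral) of each of the 42 members in each of the 3 rounds. Coloured symbols are rounds, black bars are means of 3 rounds, open symbols mark the 7 genes that were not tested, and dotted lines mark a 2-fold difference. The ligands at the top lie near 0, with means between -0.12 and 0.37, while Sfrp2, Fzd5, Fzd7 and Fzd8 reach means of 1.66 to 2.29.

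No difference between the sides passed the test for any of the 19 Wnt ligands. Their median difference was 0.02, their means ran from -0.12 to 0.37, and 50 of the 57 single-round differences were smaller than 0.5 in size. Of the 15 that were tested none had an unadjusted p under 0.05, and none had groups that did not overlap. The standard errors of 0.39 to 0.61 set the precision: the 95% intervals of the single ligands together spanned -1.39 to 1.54, and with the replicate block -0.69 to 1.05. Without the block, a 2-fold difference lay within the interval of every tested ligand except Wnt2b, Wnt3a, Wnt6 and Wnt11. With the block, it lay within that of Wnt9a only.

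Wnt9a had the largest difference of the ligands at the brightest probe sets. Its levels were 5.20, 7.32 and 5.48 in ipsilateral rounds 1 to 3 and 5.12, 6.19 and 5.58 in contralateral rounds 1 to 3, so that a single pair, round 2, differed by 1.13 and the others by 0.07 and -0.10. The mean difference was 0.37 (SE 0.55, limma adjusted p = 1.0), and without ipsilateral replicate 2 it was -0.29. Wnt8b, which marks the developing forebrain midline, followed with 5.49, 6.71 and 5.36 in ipsilateral and 4.96, 6.32 and 5.45 in contralateral RGCs, a mean difference of 0.28 (SE 0.49, limma adjusted p = 1.0). A dimmer probe set of Wnt8b gave a larger mean of 0.85, to which round 2 gave 2.13, and over all probe sets of a gene the means were 0.49 for Wnt8b and 0.19 for Wnt9a. Both ligands had overlapping groups at their brightest probe sets.

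Wnt5a and Wnt5b, ligands that often act without beta-catenin, showed no common direction. Wnt5a was at 6.70, 5.17 and 6.17 in ipsilateral and 6.20, 5.31 and 6.00 in contralateral RGCs, with differences of 0.50, -0.14 and 0.17. Wnt5b differed by -0.62, -0.12 and 0.72 in rounds 1 to 3, the only ligand with differences over 0.5 in both directions on the tested list, and its mean of -0.01 therefore had a 95% interval of -1.07 to 1.06. Its brightest probe set is of a kind that can bind related transcripts, as is that of Wnt3.

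The remaining tested ligands had mean differences close to 0. Wnt3a differed by 0.05, Wnt2b by 0.03, Wnt7a by -0.10, Wnt7b by 0.06, Wnt8a by -0.08, Wnt9b by 0.01 and Wnt10b by -0.04. Wnt4 and Wnt6 each differed by 0.03, Wnt11 by 0.01 and Wnt16 by -0.12. Directions of this size are not resolved: with the arrays centred on their medians Wnt2b, Wnt4, Wnt6, Wnt9b and Wnt11 lay between -0.04 and -0.01.

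Wnt1, Wnt2, Wnt3 and Wnt10a were below the filter and not tested. Wnt1 was at 3.30, 4.01 and 4.71 in ipsilateral and 3.34, 4.13 and 4.92 in contralateral RGCs, and was the single ligand lower in every round, by 0.04 to 0.21. Wnt2 stayed below the filter level on every array. Nearest to the filter were Fzd4 (mean level 4.60) and Wnt3 (4.71) below it and Fzd7 (5.30) and Fzd10os (5.32) above it. The dimness of a probe set is not a measure of absent transcript.

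Frizzled receptors, which bind Wnts through a cysteine-rich extracellular domain, held the most members with large differences. Their median difference was 0.29 and their means ran from -0.23 to 2.29. Of 10 receptors, 5 were higher in ipsilateral RGCs in all rounds (Fzd2, Fzd5, Fzd7, Fzd8 and Fzd9), beside 17.1% of all genes. The groups of 3 did not overlap (Fzd2, Fzd5 and Fzd7), each higher on the ipsilateral side, beside 3.28% of all genes. A mean difference of 2-fold or more higher was seen for 4, beside 2.39%. None of the 9 tested was called by limma, with or without the replicate block. At an unadjusted p under 0.05 there were 4, beside 3.04% of all genes tested, and 3 with the block, beside 14.5%.

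Fzd5, a receptor needed in the developing eye field and retinal progenitors, had levels of 9.90, 10.25 and 11.24 in ipsilateral RGCs and 8.91, 7.99 and 7.61 in contralateral RGCs. The lowest ipsilateral value lay above the highest contralateral value, and the differences of the rounds were 0.99, 2.25 and 3.63. The mean difference was 2.29 (SE 0.48, 95% interval 1.26 to 3.32), or 4.89-fold, and limma gave an adjusted p = 0.0988, or 0.175 when rounds were paired. A second, dimmer probe set of Fzd5 differed by 0.10, 0.91 and 1.01, a mean of 0.67 with overlapping groups. Fzd5 passed the test when any of 3 arrays was left out: ipsilateral 1 (adjusted p = 0.00917), contralateral 1 (0.0459) or ipsilateral 2 (0.0298). It did not pass without contralateral 2 (0.115), ipsilateral 3 (0.59) or contralateral 3 (0.405), and the mean difference over its probe sets was 1.48.

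Fzd8, the closest relative of Fzd5, was set by 1 array. Its ipsilateral levels were 5.90, 8.83 and 6.42 and its contralateral levels 5.33, 4.88 and 5.96. Ipsilateral round 2 stood far above the others, the groups overlapped at the ipsilateral value of round 1, and the mean difference of 1.66 (SE 0.64, limma adjusted p = 1.0) became 0.77 without ipsilateral replicate 2. Its dimmer probe set differed by 0.60.

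Fzd1, Fzd2 and Fzd7 form a closely related trio. Fzd7, a receptor found in many stem and progenitor cells, was at 4.91, 7.19 and 6.45 in ipsilateral and 4.51, 3.85 and 4.90 in contralateral RGCs, so the groups did not overlap but met at nearly the same value. All 3 ipsilateral arrays and 1 of the 3 contralateral arrays were at or above the filter level. The mean difference was 1.77 (SE 0.55, limma adjusted p = 0.603), and without ipsilateral replicate 1 it was 2.41 (adjusted p = 0.012). Leaving out any other array gave 1.26 to 2.01, with adjusted p = 0.623 or above, and the lowest value came without ipsilateral replicate 2. Its other probe set differed by 0.18, and the mean over both was 0.97.

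Fzd2 was at 6.82, 7.38 and 6.85 in ipsilateral and 5.51, 6.18 and 6.20 in contralateral RGCs. Each ipsilateral value lay above every contralateral value, and the mean difference was 1.05 (SE 0.41, 95% interval 0.18 to 1.92, limma adjusted p = 1.0). The other 2 probe sets of Fzd2 each differed by -0.08 with overlapping groups, so the difference rested on 1 of 3 probe sets. Fzd1 had levels of 8.12, 8.10 and 7.93 in ipsilateral and 7.60, 7.50 and 7.93 in contralateral RGCs, a mean difference of 0.37 (SE 0.38, limma adjusted p = 1.0), with -0.07 at its second probe set.

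Fzd3, a receptor of the planar polarity pathway that is known for guiding axons, showed no such excess. It was at 10.08, 9.92 and 10.36 in ipsilateral and 10.29, 10.42 and 10.36 in contralateral RGCs, and its mean difference was -0.23 (SE 0.38, 95% interval -1.05 to 0.59). All 6 of its probe sets had a mean difference between -0.24 and -0.08. Fzd6, its close relative, differed by 0.02 (95% interval -0.96 to 0.99). The interval of Fzd3 includes a 2-fold lower level in ipsilateral RGCs but not a 2-fold higher one.

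The remaining receptors, Fzd4, Fzd9 and Fzd10, are related to each other. Fzd9 differed by 0.14, 0.44 and 0.07 and had a mean of 0.22 (SE 0.49), and Fzd10 differed by -0.41, -0.14 and 0.10 with a mean of -0.15 (SE 0.52). The opposite-strand transcript Fzd10os differed by -0.21 (SE 0.44). Fzd4 was below the filter, with levels of 4.43 to 4.92 on the ipsilateral and 4.35 to 4.79 on the contralateral side. None of these had groups that were separate.

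**Figure D2:**
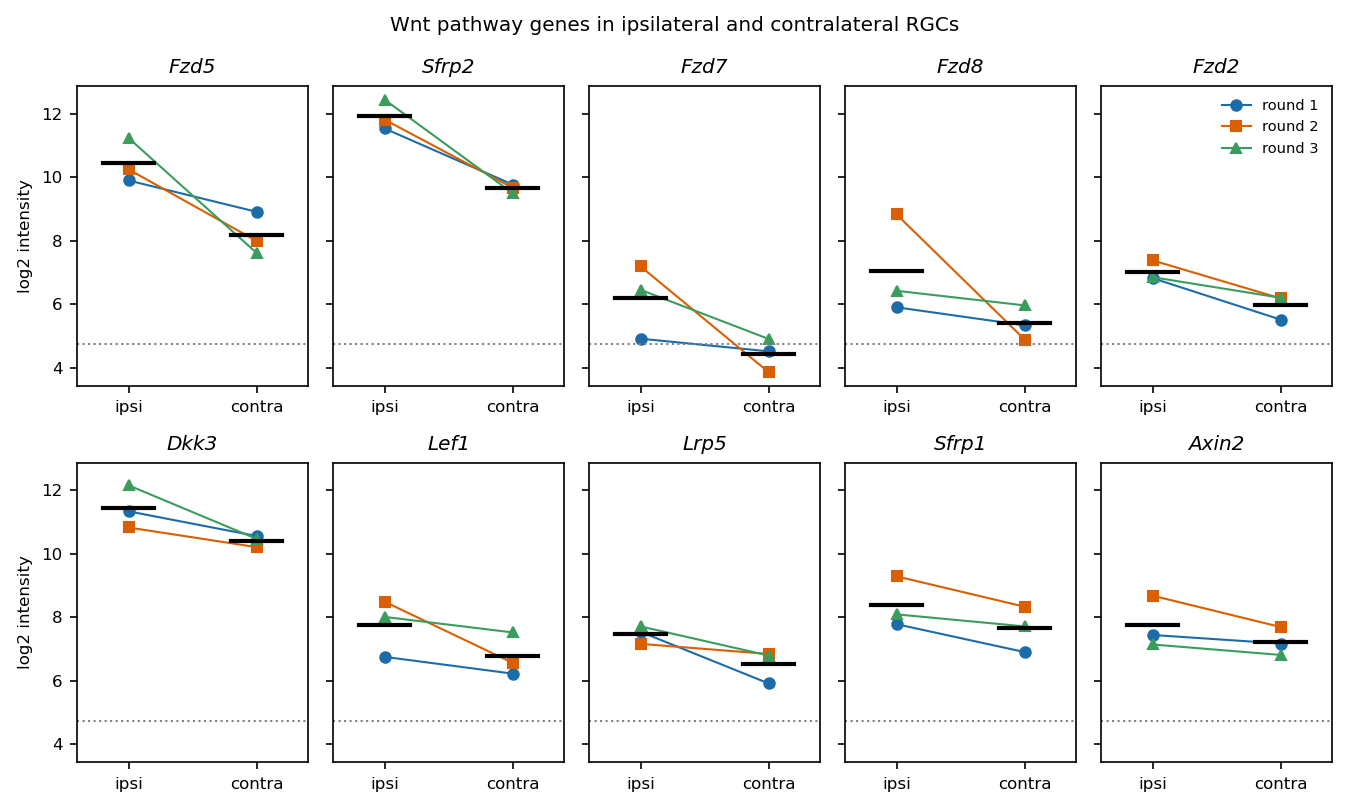
The vertical axis is the log2 intensity of the 10 members with the largest differences of the same sign in every round, with 1 panel per gene. Lines join the ipsilateral and contralateral sample of a round, black bars are the means of 3 samples and the dotted line is the filter level of 4.74. Sfrp2 and Fzd5 separate in every round, with mean differences of 2.29, while the height of Fzd8 comes from ipsilateral round 2 at 8.83.

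The coreceptors Lrp5 and Lrp6 pair with Frizzled receptors in signalling through beta-catenin. Lrp5 was at 7.54, 7.16 and 7.71 in ipsilateral and 5.91, 6.84 and 6.79 in contralateral RGCs, and its groups did not overlap. Its mean difference was 0.96 (SE 0.42, 95% interval 0.06 to 1.86, limma adjusted p = 1.0), with round 1 giving 1.64 and round 2 giving 0.32. Lrp6 was at 9.44, 9.80 and 9.84 in ipsilateral and 9.32, 10.03 and 9.37 in contralateral RGCs, a difference of 0.12 (SE 0.40, 95% interval -0.74 to 0.98). Lrp5 had 1 probe set, and a second probe set of Lrp6 differed by -0.02.

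Sfrp proteins carry a Frizzled-like domain and bind Wnts outside the cell. Sfrp2 was at 11.54, 11.82 and 12.45 in ipsilateral RGCs and at 9.77, 9.67 and 9.50 in contralateral RGCs. The sides were separate by more than the spread within either of them (SD 0.47 ipsilateral and 0.14 contralateral, n = 3 each), and the rounds differed by 1.77, 2.15 and 2.95. Sfrp2 thus rose by 2.29 on the log2 scale, or 4.89-fold (SE 0.40, 95% interval 1.42 to 3.16), and its adjusted p in limma was 0.0321. Pairing the rounds gave 0.0629. Leaving out contralateral 1 gave 0.0643, leaving out ipsilateral 3 gave 0.251 and leaving out contralateral 3 gave 0.163, although the difference stayed between 2.03 and 2.49 whichever array was left out. Sfrp2 had 1 probe set, so no second measurement of it was at hand.

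The other Sfrp genes were not called. Sfrp1, which acts on RGC axon growth as well as on Wnt signalling, was at 7.78, 9.29 and 8.09 in ipsilateral and 6.90, 8.33 and 7.71 in contralateral RGCs. It was higher on the ipsilateral side in each round, by 0.38 to 0.96, but the levels moved more between rounds than between sides, and the mean of 0.74 (SE 0.50) had a 95% interval of -0.34 to 1.82, or 0.30 to 1.18 with the replicate block. Its 4 other probe sets differed by 0.13, 0.91, 0.10 and 0.40. Without ipsilateral replicate 2 the difference was 0.29 and without contralateral replicate 1 it was 0.36, and the highest value with an array left out was 1.08. Sfrp4 was lower in every round, by 0.09 to 0.50, with a mean of -0.27 (SE 0.41, limma adjusted p = 1.0) and overlapping groups. Sfrp5 differed by -0.03 (SE 0.56).

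The sequences just before the annotated start sites are shown for the 3 members with the largest mean differences, to set them beside each other. All 3 have an entry in the RefSeq promoter table, and of them only Sfrp2 was called. Each sequence is 250 bases, from GRCm38.p6, read 5′ to 3′ on the strand of the gene. Sfrp2 lies at chr3:83766071-83766320 (plus strand), Fzd5 at chr1:64737751-64738000 (minus strand) and Fzd7 at chr1:59481897-59482146 (plus strand). Capitals mark a Tcf/Lef core motif, searched on both strands as CTTTGAA, then as CTTTGAT, then as CTTTGTA and lastly as CTTTGTT, which also resembles the motif of Sox factors.
Sfrp2: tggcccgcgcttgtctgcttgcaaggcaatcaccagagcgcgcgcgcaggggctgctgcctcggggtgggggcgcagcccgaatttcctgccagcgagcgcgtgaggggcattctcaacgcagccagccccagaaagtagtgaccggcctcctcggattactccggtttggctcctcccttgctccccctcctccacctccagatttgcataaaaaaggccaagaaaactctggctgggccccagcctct
Fzd5: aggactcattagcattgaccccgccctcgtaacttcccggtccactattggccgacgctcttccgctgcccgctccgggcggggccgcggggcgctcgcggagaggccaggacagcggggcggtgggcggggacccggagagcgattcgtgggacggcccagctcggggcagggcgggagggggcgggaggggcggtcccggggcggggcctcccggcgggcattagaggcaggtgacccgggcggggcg
Fzd7: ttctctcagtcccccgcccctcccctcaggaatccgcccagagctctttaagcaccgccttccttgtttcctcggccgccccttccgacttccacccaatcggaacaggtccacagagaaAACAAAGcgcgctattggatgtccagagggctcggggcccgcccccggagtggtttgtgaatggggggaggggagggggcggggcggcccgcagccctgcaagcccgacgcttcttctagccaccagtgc

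Fzd7 held 1 match, AACAAAG on the strand shown, which spans bases 130 to 124 before the start, and the windows of Sfrp2 and Fzd5 held none. Over the table, 4874 of 32851 promoters (14.8%) held at least 1 match, and of 33 promoters of 27 member genes 5 did: 1 each of Dkk1, Fzd7, Lef1, Wnt11 and Wnt5b. All 3 windows were rich in CG dinucleotides, with 16 in Sfrp2, 32 in Fzd5 and 17 in Fzd7, beside a median of 6 over all promoters. A match is a description of letters and says nothing of a factor's presence.

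Dkk proteins are secreted, and Dkk1, Dkk2 and Dkk4 bind Lrp5 and Lrp6, whereas Dkk3 is the divergent member. Dkk3 was at 11.34, 10.83 and 12.16 in ipsilateral and 10.56, 10.21 and 10.47 in contralateral RGCs, with separate groups and differences of 0.78, 0.62 and 1.69. The mean difference was 1.03 (SE 0.43, 95% interval 0.10 to 1.96, limma adjusted p = 1.0). Its second probe set gave 1.11, 0.63 and 1.73, a mean of 1.16, also with separate groups, so the probe sets of Dkk3 gave like values round by round. Leaving out 1 array moved the difference to between 0.67, without ipsilateral replicate 3, and 1.34. Dkk4 differed by -0.15 (SE 0.42). Dkk1 and Dkk2 were below the filter, with mean differences of -0.09 and 0.06.

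Axin2 and Lef1 are common transcriptional readouts of beta-catenin signalling, and Lef1 is also a partner of beta-catenin. Lef1 was at 6.75, 8.49 and 8.01 in ipsilateral and 6.22, 6.56 and 7.52 in contralateral RGCs, with overlapping groups and a mean difference of 0.99 (SE 0.51, limma adjusted p = 1.0) to which round 2 gave 1.94. Axin2 was at 7.44, 8.68 and 7.14 in ipsilateral and 7.17, 7.69 and 6.81 in contralateral RGCs, a mean difference of 0.53 (SE 0.47, limma adjusted p = 1.0). Both were higher in ipsilateral RGCs in each round. Without ipsilateral replicate 2 the difference of Axin2 was 0.07 and that of Lef1 0.61, and with any array left out they stayed at or below 0.84 and 1.49. A second probe set of Axin2 was lower in each round (mean -0.35), and that of Lef1, which was below the filter on every array, differed by -0.08. The mean over both probe sets was 0.09 for Axin2 and 0.45 for Lef1.

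**Figure D3:**
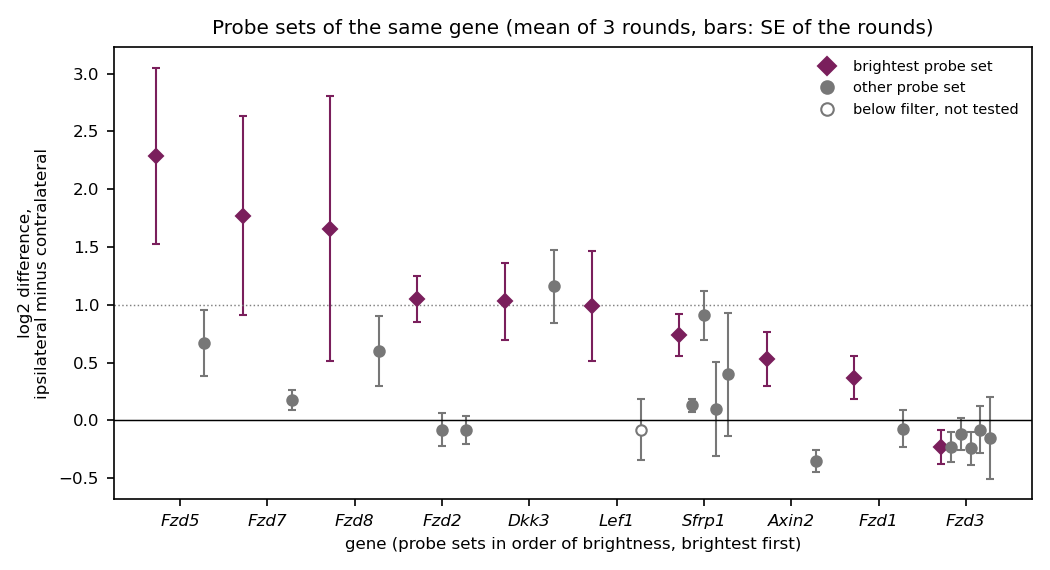
The vertical axis is the mean log2 difference of every probe set of the 8 named members that have several probe sets, with Fzd1 and Fzd3 added. Diamonds are the brightest probe sets, circles the others, open circles those below the filter, and bars the SE over 3 rounds. The probe sets of Dkk3 lie together at 1.03 and 1.16 and those of Fzd3 between -0.24 and -0.08, while those of Fzd2, Fzd5, Fzd7 and Axin2 are apart.

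The probe sets of a gene did not always give the same picture. Of the 42 members, 26 had several probe sets, and of 64 member probe sets tested 1 was called (beside 0.244% of all probe sets kept) and 9 had an unadjusted p under 0.05 (beside 2.66% of all probe sets kept). Outside Sfrp2, which has 1 probe set, Dkk3 was the only member of the 8 with several probe sets in the plot of probe sets for which every probe set gave separate groups. Which transcripts each probe set detects was not tested.

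Other genes of the pathway were taken from lists. Of 24 transducers, from the Dvl proteins to the Tle corepressors, 1 was called: Tcf7l2, a Tcf factor that partners beta-catenin, rose by 2.71 (SE 0.43), with an adjusted p = 0.0154 in limma and 0.074 when rounds were paired. Tcf7l2 was at 8.43, 9.14 and 9.17 in ipsilateral and 6.68, 6.23 and 5.69 in contralateral RGCs, with fully separate groups, and its next probe set differed by 1.97 (limma adjusted p = 0.11). The 1 call stands beside 0.358% of all genes tested. The median of the transducers was -0.13, 3 were higher in all rounds (beside 17.1% of all genes) and 9 were lower in all rounds (beside 18.7%). Tcf7l1 differed by 0.50, Apc by -0.48, Csnk1e by -0.48 and Apc2 by -0.39, none of them called, and beta-catenin itself (Ctnnb1) by 0.10.

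Of 28 genes for Wnt release and modulation at the cell surface, 24 were tested and 1 was called, beside 0.358% of all genes tested. Tpbg, a membrane glycoprotein that inhibits Wnt signalling through Lrp6, was at 8.84, 9.02 and 10.13 in ipsilateral and 7.11, 6.89 and 6.77 in contralateral RGCs, and rose by 2.41 (SE 0.44), with an adjusted p = 0.0386 in limma and 0.0877 when rounds were paired. The glypican Gpc4 differed by 2.25 (limma adjusted p = 0.117), and Shisa2, which holds Frizzled receptors back in the endoplasmic reticulum, by 1.81 (adjusted p = 0.171 in limma, and 0.0412 when rounds were paired). Apcdd1, an inhibitor at the membrane, differed by 0.75 and Gpc6 by 0.66, with adjusted p = 1.0 in limma. The median of this list was 0.05, and the study had listed Tcf7l2, Tpbg, Gpc4 and Shisa2 from these arrays, so they are not independent evidence.

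The 16 genes of alternative Wnt receptors and planar polarity held no call, and none had an unadjusted p under 0.05 in limma. Their median difference was 0.05 and their means ran from -0.49 to 0.87. Ror2 had the largest, 0.87 (limma adjusted p = 1.0), with 0.94, 1.79 and -0.11 in the rounds, followed by Ptk7 with 0.60, Ankrd6 with -0.49 and Celsr1 with 0.45. Ryk, a Wnt receptor of RGC axons, differed by -0.09.

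Of 18 other target genes of beta-catenin, 16 were tested at their brightest probe sets and none was called in limma. At an unadjusted p under 0.05 there were 5, beside 3.04% of all genes tested. The median was 0.09, with 6 higher in all rounds (beside 17.1% of all genes) and 2 lower in all rounds (beside 18.7%). Ccnd2 (cyclin D2) differed by 2.84 (adjusted p = 0.16 in limma, and 0.017 when rounds were paired), Fgf15 by 2.63 (limma adjusted p = 0.0995), Id2 by 1.78 and Ccnd1 by 1.56. A dimmer probe set of Ccnd2 was called, with a difference of 3.06 (adjusted p = 0.0267 in limma, and 0.101 when rounds were paired). Its contralateral mean of 4.45 was below the filter level, with 1 of 3 contralateral arrays at or above it. It passed the filter through its ipsilateral values (mean 7.50), so its call adds no independent support. The study had listed Ccnd2, Id2 and Ccnd1 from these arrays. Several of the target genes are also genes of cycling progenitors, and Ccnd1 and Fgf15 are on the progenitor list as well. The remaining gene with an unadjusted p under 0.05, Dact1, went the other way. It differed by -1.07 (limma unadjusted p = 0.0189), was lower in ipsilateral RGCs in every round, and had separate groups.

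Marker levels of the progenitor and microglia lists moved with the side. Of 21 retinal progenitor markers, 3 were called higher in ipsilateral RGCs (Sox2, Sox9 and Fabp7), beside 0.358% of all genes tested. In all rounds 16 were higher, beside 17.1% of all genes. By in situ hybridization the study found Sox2 and Math5 (Atoh7) in Zic2-positive RGCs as well as in progenitors. It also reported Lhx2, Zic1 and Ccnd2 in ipsilateral RGCs, more weakly or in a shorter window. Such genes are thus not marks of another cell type alone. When rounds were paired none of the 3 passed, with adjusted p = 0.156, 0.0748 and 0.0806 in limma. Over all 21 markers the median difference was 1.59 (1.27, 1.56 and 2.55 by round), and the mean level was 9.0 to 10.1 in the ipsilateral and 7.9 to 8 in the contralateral arrays. Round 3 had the largest difference for this list, as it did for Sfrp2, Fzd5 and Dkk3. Fzd7, Fzd8, Lef1, Sfrp1 and Axin2 were largest in round 2, and Fzd2 and Lrp5 in round 1. Of 16 microglia and macrophage markers, 14 were tested and 7 were called higher, beside 0.358% of all genes tested. When rounds were paired 6 were called, beside 0.319%. Their median was 2.11, with 2.65, 2.62 and 1.0 in the rounds, and mean levels were 7.54 to 8.23 against 4.59 to 5.50. The part of either cell type in the results of Sfrp2 and the Frizzled receptors was not tested.

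**Figure D4:**
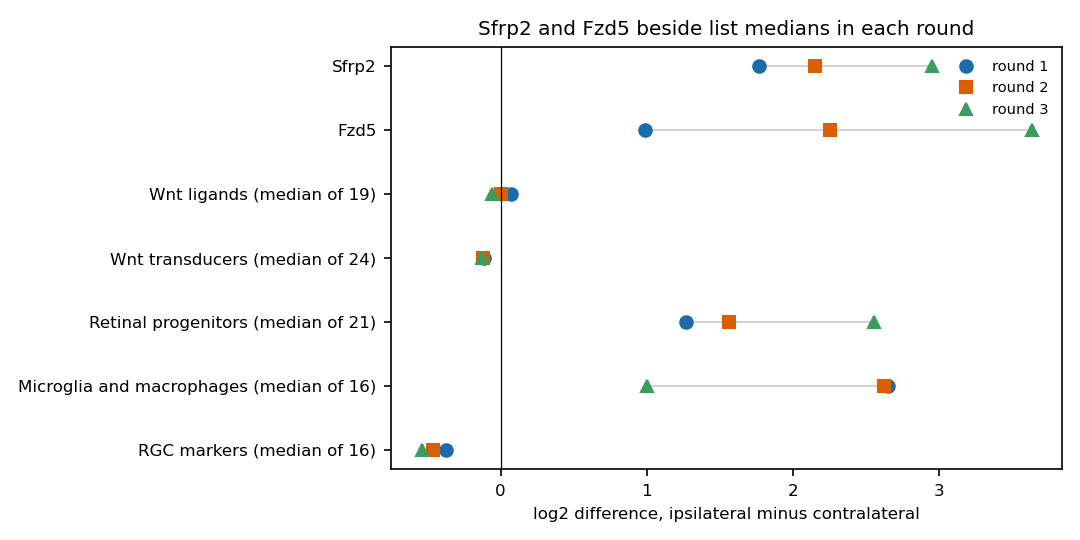
The horizontal axis is the log2 difference (ipsilateral minus contralateral) in each round, for Sfrp2 and Fzd5 as single genes and for 5 lists as medians over their genes. Symbols are rounds. Round 3 is highest for Sfrp2 (2.95), Fzd5 (3.63) and the progenitor list (2.55) and lowest for the microglia list (1.0), while the Wnt ligands stay between -0.06 and 0.07.

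The other cell type lists had lower medians. Their calls stand beside 0.358% of all genes tested called higher, or 0.319% when rounds were paired. Ciliary margin genes, of which 8 of 10 were tested, had a median of 0.23 and 1 call (Zic1, 2.57). Pairing the rounds gave 2 calls, Zic1 and Ccnd2, whose difference of 2.84 was the largest of that list. Other retinal neurons, of which 12 of 14 were tested, had a median of 0.31 and 1 call (Neurod4, 2.59). The medians were -0.00 for 14 genes of endothelial cells and pericytes, 0.05 for 10 of pigment epithelium and melanocytes, 0.12 for 11 of mesenchyme, -0.01 for 10 of lens and 0.08 for 7 of optic disc glia and astrocytes, with 0 calls in each (limma, and 1 unadjusted p under 0.05 each for endothelial cells and mesenchyme). Tek and Emcn of endothelial cells and Lum of mesenchyme were below the filter on every array. Among the mesenchyme genes, Col1a2 differed by 3.86, 1.75 and 0.83 in rounds 1 to 3.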

How the data were processed

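Transcript levels were measured in 6 samples (3 ipsilateral and 3 contralateral, grouped by sample title) on Affymetrix mouse genome arrays after cDNA amplification. Each probe set has 1 deposited value on the log2 scale, which the authors computed by RMA in Affymetrix Expression Console 1.1, and whether all arrays were normalized together is not given in the sources used here. Array medians went by round, at 5.81 ipsilateral and 5.80 contralateral in round 1, 6.70 and 6.65 in round 2, and 6.33 and 6.26 in round 3. The fit without the replicate block counts such shifts between rounds as spread within a side. The number of arrays also limits the precision. Of 45101 probe sets, 64 controls were left out, and 36029 with a mean at or above the 20th percentile (4.74) were kept. The array annotation names 1 gene for 34945 probe sets.

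The sides were set against each other in R 4.3.3 by limma 3.58.1 (lmFit, eBayes, no block). The thresholds were those of the study (2-fold and, after Benjamini-Hochberg adjustment over the probe sets kept, p under 0.05). The code was run on simulated arrays with independent noise. These held no pairing of rounds, so the run cannot show how the calls behave with paired rounds. Intervals are 95%. Full statistics are given for called members and the 10 largest differences of the same sign in all rounds, and of other lists for called genes and up to 4 with the largest differences. Of genes outside this rule, Ctnnb1 and Ryk were picked for their role and Dact1 for its opposite direction. Members and lists were chosen with earlier results of these data known.

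Replicate numbers pair the samples, since the sides of a round were prepared together per the study. After centring on group means, arrays with the same number correlated at 0.511, 0.541 and 0.612, and others at -0.353 to -0.207. The median SE was 0.44 without and 0.17 with the block. Alternatives were the block, other filters, quantile normalization, median centring, a trended robust and an unmoderated test, gene means, other thresholds and leaving out each array. Kremen2, Mfrp, Prickle3, Pou4f2 and Pax2 were not analysed here. Samples within a side are separate rounds, so p-values measure the spread between rounds.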

Additional observations from a re-analysis of the deposited data

How the results depend on the processing

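The count of 1 member called higher stayed at 1 under quantile normalization, median centring, gene means over all probe sets and no fold threshold. It was 0 with the replicate block that pairs the samples of a round (Sfrp2, adjusted p = 0.0629), 0 with no filter (0.054) and 0 with an unmoderated test (0.968). It was 2, Sfrp2 and Fzd5, with a filter at the 50th percentile (Fzd5, 0.0238) and with a trended, robust eBayes (Fzd5, 0.00144), and 6 at an unadjusted p. Leaving out each array in turn gave 0 to 3. The count called lower was 0 under every alternative run, 0 to 0 with an array left out.

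Among single members with all arrays kept, 13 of 267 values changed sign, all from main differences of at most 0.03 in size. With arrays centred on their medians, Wnt2b was -0.01, Wnt4 -0.01, Wnt6 -0.02, Wnt9b -0.04, Wnt11 -0.04 and Fzd6 -0.03. Under quantile normalization Wnt6 was -0.01, Wnt9b -0.03, Wnt11 -0.03 and Fzd6 -0.00, and as gene means Wnt4 was -0.09, Wnt6 -0.02 and Sfrp5 0.02. With an array left out, 22 members changed sign at least once, with ranges of -0.22 to 0.32 for Wnt2b, -0.08 to 0.23 for Wnt3a, -0.47 to 0.42 for Wnt4, -0.16 to 0.60 for Wnt5a, -0.57 to 0.32 for Wnt5b, -0.15 to 0.25 for Wnt6, -0.59 to 0.42 for Wnt7a and -0.42 to 0.65 for Wnt7b. They were -0.75 to 0.49 for Wnt8a, -0.15 to 0.65 for Wnt8b, -0.29 to 0.77 for Wnt9a, -0.43 to 0.41 for Wnt9b, -0.47 to 0.34 for Wnt10b, -0.24 to 0.20 for Wnt11 and -0.62 to 0.40 for Wnt16. Among the receptors, coreceptors and antagonists the ranges were -0.30 to 0.35 for Fzd6, -0.18 to 0.65 for Fzd9, -0.63 to 0.32 for Fzd10, -0.46 to 0.08 for Fzd10os, -0.00 to 0.35 for Lrp6, -0.54 to 0.56 for Sfrp5 and -0.43 to 0.13 for Dkk4. The cause was not tested. In fits without an array, a side of 2 samples shares its spread with the other. Dim probe sets, such as those of the ligands, shifts of the arrays between rounds and the number of arrays limit what could be resolved.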
